A study of Mus musculus with 4 samples.

Results

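The classical cadherins described here are 10 genes, Cdh1, Cdh2, Cdh3, Cdh4, Cdh6, Cdh7, Cdh8, Cdh10, Cdh11 and Cdh13, chosen by name from the 24982 genes of a count table of mouse embryonic forebrain at E10.5. All 10 were in the table and all 10 passed the filter on low counts, which left 14235 genes. The 2 controls had the genotype Chd7 +/f, in which 1 Chd7 allele was floxed and no Cre was named. The 2 conditional knockout (cKO) libraries carried Sox1 cre+/-; Chd7 f/f, so that floxed Chd7, the gene of an ATP-dependent chromatin remodeller, was deleted where a Cre recombinase named for Sox1 was active. Every library therefore carried at least 1 floxed Chd7 allele, and an effect of the Cre allele cannot be told apart from that of the deletion. Sox1 is a gene of the neural plate and neural tube, and RNA was taken from whole forebrain tissue, so cells of other origin in it need not have lost Chd7. Polyadenylated RNA was sequenced to 16581252 to 17096522 counts per library. The labels do not say whether libraries came from separate embryos or pools, so p-values measure only the spread between these libraries.

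Cadherins are transmembrane proteins that join neighbouring cells by binding a cadherin on the other cell in the presence of calcium. Type I members (Cdh1 or E-cadherin, Cdh2 or N-cadherin, Cdh3 or P-cadherin, Cdh4 or R-cadherin) bind strongly and prefer their own kind, and type II members (here Cdh6, Cdh7, Cdh8, Cdh10 and Cdh11) bind in overlapping specificity groups. Inside the cell the tail of both types holds catenins that link it to actin. Cdh13 (T-cadherin) is held in the membrane by a lipid (GPI) anchor and has no such tail, so it is not a classical cadherin in the strict sense. During neurulation the neural plate exchanges E-cadherin for N-cadherin, and later different type II cadherins and Cdh4 are expressed in different compartments of the brain, where they help keep cells of neighbouring compartments apart.

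In the cKO forebrain 1 of the 10 cadherins, Cdh8, was called lower and 0 were called higher. A gene was called where its p-value from edgeR's quasi-likelihood test, adjusted by the Benjamini-Hochberg method over all genes tested, was under 0.05, and every adjusted p below is of this kind unless another source is named. The background of this test was 2.13% of genes called lower and 1.57% called higher. At an unadjusted p under 0.05, 5 members were lower and 0 higher, where 9.09% and 8.42% of all genes were. In 6 members both cKO libraries lay below both controls, against 24.0% of all genes tested, and in 0 members both lay above, against 24.3%. The median log2 fold change of the members was −0.17, and that of all genes −0.0003. The members were chosen with earlier results of these data known, so these shares are a description.

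The promoter windows of 3 type II members are shown because these 3, Cdh8, Cdh10 and Cdh7, had the largest log2 fold changes of the family in the direction of a decrease. Each is the 250 bases before a transcription start, 5′ to 3′ on the gene's strand, from the RefSeq annotation of GRCm38.p6. In the table of promoters 4 of the 10 members were matched, Cdh6 being the other, and Cdh1, Cdh3, Cdh4, Cdh11 and Cdh13 were not. Cdh2 was left out of the matching because of its position in the genome, so whether the table held a window for it was not examined. Capitals mark CACCTG (the E-box bound by Snail and Zeb repressors), GGGCGG (the GC box) or CCAAT, on either strand. The first of these motifs was listed in the plan, and the other two were added after the windows had been seen.
Cdh8, chr8:99416472-99416721, minus strand: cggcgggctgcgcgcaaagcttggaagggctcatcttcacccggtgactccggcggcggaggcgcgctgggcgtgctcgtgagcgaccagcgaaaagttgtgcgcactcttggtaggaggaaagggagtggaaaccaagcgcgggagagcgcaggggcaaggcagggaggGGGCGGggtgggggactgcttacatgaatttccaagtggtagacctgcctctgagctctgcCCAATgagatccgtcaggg
Cdh10, chr15:18820079-18820328, plus strand: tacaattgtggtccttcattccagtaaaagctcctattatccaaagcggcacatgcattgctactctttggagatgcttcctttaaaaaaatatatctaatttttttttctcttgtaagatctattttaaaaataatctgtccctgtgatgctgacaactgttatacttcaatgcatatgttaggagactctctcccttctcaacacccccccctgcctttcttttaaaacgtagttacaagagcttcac
Cdh7, chr1:109982650-109982899, plus strand: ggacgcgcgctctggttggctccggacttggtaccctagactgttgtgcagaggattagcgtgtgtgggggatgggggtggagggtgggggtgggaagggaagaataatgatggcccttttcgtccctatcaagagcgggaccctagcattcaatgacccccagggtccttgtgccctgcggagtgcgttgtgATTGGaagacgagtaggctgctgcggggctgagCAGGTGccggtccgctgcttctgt

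All 3 windows lie within the outermost limits of their genes, for which RefSeq lists a further start upstream. They were unlike each other in base composition. The Cdh8 window was 64.4% G and C with 20 CG dinucleotides, above 81.6% of the 32851 promoter windows of the table in G and C content. The Cdh10 window was 36.8% G and C with 2 CG dinucleotides, above 6.7% of them, and held none of the 3 motifs. The promoter table held 3 windows for Cdh7, of which the one lying furthest upstream is printed. That window was 60.8% G and C and held an E-box, as did 1 of the other 2. The E-box was in 17.2% of all windows, the GC box in 32.7% and CCAAT in 33.8%. A match of letters is a description of the window and not evidence of a bound factor.

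Levels of different genes were compared as CPM (counts scaled to an equal library size, after TMM) per kilobase of exon, with exon lengths from GENCODE M21. Cdh2 was the most abundant member, with 61.1 and 55.7 in the 2 controls and 50.5 and 51.8 in the 2 cKO libraries on this scale. It took 50.0% to 59.1% of the summed level of the 10 genes in each library. Next came Cdh11 (control mean 19.9 ± 1.6, SD, n = 2), Cdh4 (9.59 ± 1.6) and Cdh6 (7.97 ± 0.15), and the 2 controls of each of these lay above both controls of the next. Cdh3, Cdh8 and Cdh1 followed at control means of 2.99, 1.8 and 1.75, but their control ranges overlapped, so their order is not set, and the range of Cdh1 also reached that of Cdh7. The lowest were Cdh7 (0.501 ± 0.18), Cdh10 (0.260 ± 0.012) and Cdh13 (0.235 ± 0.11), and the ranges of Cdh10 and Cdh13 overlapped. The same 4 genes, Cdh2, Cdh11, Cdh4 and Cdh6, led the order in the cKO. The summed level of the 4 type I genes was 71.8 to 73.7 in controls and 65.9 to 68.2 in cKO libraries on the same scale, and that of the 5 type II genes was 29.5 to 31.4 and 25.8 to 32.4. The sums of type I genes did not overlap between the groups, and those of type II genes did. Most of the type I sum was Cdh2 (61.1 of 73.7 in control replicate 1), which was not called. Most of the type II sum was Cdh11 (18.85 of 29.5 in control replicate 1), whose groups overlapped. The other type II genes, Cdh6, Cdh7, Cdh8 and Cdh10, each lay lower in both cKO libraries than in both controls. The type I genes Cdh1 and Cdh3 had log2 fold changes above 0 (0.75 and 0.73).

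**Figure D1:**
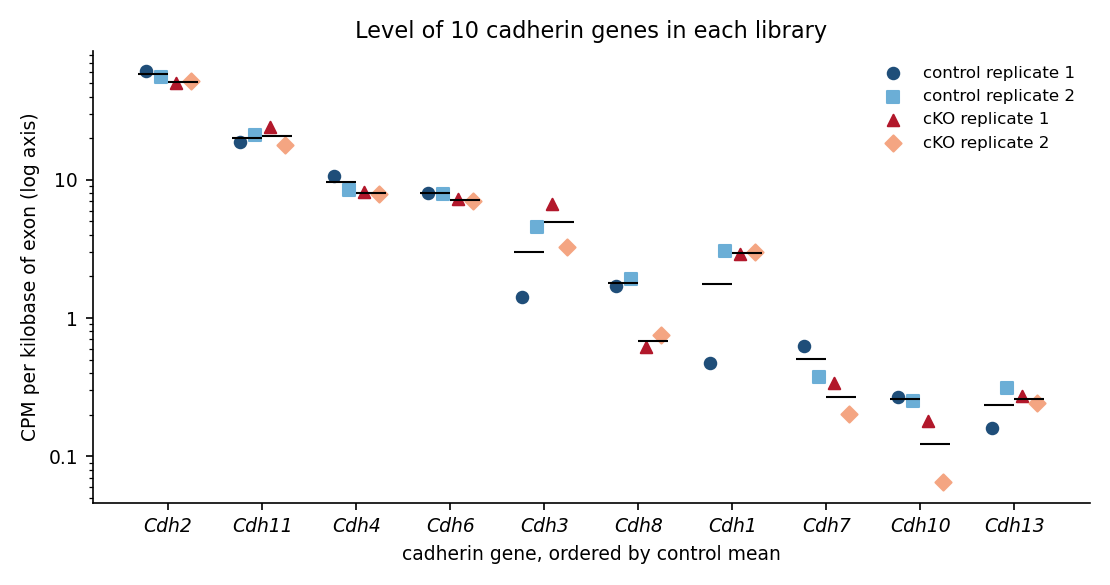
Level of each cadherin gene in each library as CPM per kilobase of exon on a log axis, 1 symbol per library, with black bars for the mean of the 2 control (left) and 2 cKO (right) libraries. Cdh2 lies at 50.5 to 61.1 in all 4 libraries, and the 2 control points of Cdh1 lie apart, at 0.472 and 3.04.

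Cdh8, a type II cadherin known from restricted domains of the developing forebrain, was the only member called. The 2 controls held 219 and 251 counts of it, and the 2 cKO libraries 79 and 99, with replicate 1 given first here and below. In CPM these were 13.1, 14.8, 4.76 and 5.86, so both cKO libraries lay below both controls. The mean went from 14.0 ± 1.2 to 5.31 ± 0.77 CPM (SD, n = 2 each), a 2.63-fold decrease. On the log2 scale this was −1.39 with an SE of 0.18 (adjusted p = 0.0091). The call held when each library was left out in turn, with log2 fold changes from −1.55 to −1.25 and adjusted p-values from 0.013 to 0.027. Cdh8 lies on chromosome 8 at 99024471 to 99417666 (GRCm38). In GENCODE M21 its exons share 23 bases, 0.3% of their length, with the opposite-strand gene Gm15679, and none of the other 9 members shares exon bases with another gene. In the authors' deposited table Cdh8 had a log2 fold change of −1.40 and an adjusted p of 5.8e-05, and was the only member with an adjusted p under 0.05.

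Several marker lists were also lower in sum, those of neurons and of erythroid cells among them. Of 14 neuronal markers, all tested, 14 had a log2 fold change below 0 and 4 were called lower, with a summed level of 1215 and 1009 CPM in controls and 716 and 738 CPM in cKO libraries. Erythroid markers had a sum of 2857 and 3077 CPM in controls and 1897 and 1811 CPM in the cKO. All 9 tested genes had a log2 fold change below 0 and 7 were called lower. Forebrain neuroepithelium (4123 and 3621 CPM in controls, 3174 and 3364 CPM in the cKO) and endothelium (348 and 332, 294 and 297) were lower too. So was the forebrain compartment list (1178 and 1083 CPM in controls, 920 and 926 CPM in the cKO). The sums of the epithelial and mesenchyme lists overlapped between the groups. The part of any of these lists in the decrease of Cdh8 was not tested. In bulk tissue, fewer cells of a type and less RNA per cell cannot be told apart. The genes whose pattern over the 4 libraries was most like that of Cdh8 were Mapt, Foxb1 and Tcf7l2, with root mean square distances of 0.09, 0.11 and 0.11 in centred log2 CPM. All 3 were lower in the cKO (log2 fold changes −1.52, −1.56 and −1.30). That direction follows from their choice by likeness to Cdh8 over the same libraries and is not a separate result. The measure of likeness compares 4 values per gene.

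Among the other type II members, Cdh7 and Cdh10 had lower fitted levels in the cKO but were not called. Cdh7, a cadherin of restricted neural tube domains and of migrating neural crest, had counts of 105 and 64 in controls and 56 and 34 in cKO libraries. Its controls differed 1.67-fold and its cKO libraries 1.68-fold (log2 fold change −0.90, SE 0.36, adjusted p = 0.263). Leaving out the first control moved this to −0.48 and leaving out the second control to −1.22. It was −1.32 without the first cKO library and −0.57 without the second. Cdh10 (chromosome 15, 18818869 to 19016206) had counts of 45 and 43 in controls and 30 and 11 in cKO libraries. The count of 11 has an exact 95% Poisson interval of 5.49 to 19.7, and that of 30 one of 20.2 to 42.8, for counting error only. Its log2 fold change was −1.09 (SE 0.48, adjusted p = 0.303). Leaving out the first cKO library gave −1.99 and leaving out the second gave −0.53, with no call in either fit. Both genes lay lower in each cKO library than in each control, but neither difference passed the test against the spread between libraries. Counts within a group differed beyond counting error for Cdh7 in controls (exact 95% Poisson intervals 85.9 to 127 and 49.3 to 81.7) and for Cdh10 in the cKO.

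Cdh6, a type II cadherin that marks the lateral ganglionic eminence against the cortex, varied little. It measured 72.9 and 70.9 CPM in controls and 66.1 and 63.4 CPM in cKO libraries. Both cKO libraries were below both controls, by −0.15 on the log2 scale with an SE of 0.06 (adjusted p = 0.264). The 2 controls of Cdh6 differed 1.03-fold and the 2 cKO libraries 1.04-fold, while Cdh8, the called member, differed 1.12-fold and 1.23-fold.

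Cdh2 and Cdh4, the type I cadherins of neural tissue, were slightly lower in the cKO and not called. Cdh2, the main cadherin of neuroepithelial adherens junctions, measured 493 and 449 CPM in controls and 407 and 418 CPM in the cKO. Its log2 difference was −0.19 with an SE of 0.05 (adjusted p = 0.115). It stood above 97.8% of tested genes in mean CPM. Cdh4, which is expressed on the cortical side of that boundary, measured 77.7 and 61.5 CPM in controls and 59.2 and 57.1 CPM in the cKO. The log2 difference was −0.26 with an SE of 0.11 (adjusted p = 0.275). In both genes the cKO libraries were below both controls, and control replicate 1 was the highest library. Both were called when control replicate 2 was left out, so that control replicate 1 stood alone: Cdh2 at −0.26 (adjusted p = 0.032) and Cdh4 at −0.42 (adjusted p = 0.017). Without control replicate 1 they were at −0.12 and −0.08 (adjusted p = 0.411 and 0.752). The authors' deposited table gave Cdh2 a log2 fold change of −0.19 and an adjusted p of 0.053.

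**Figure D2:**
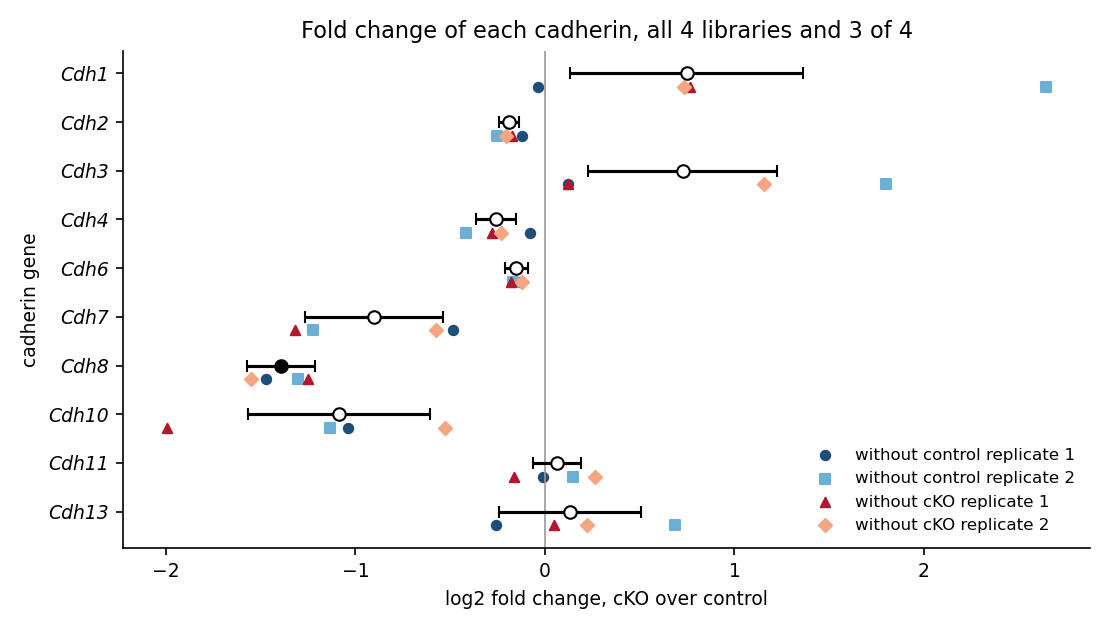
Log2 fold change of each cadherin, cKO over control, from edgeR with all 4 libraries (circles, filled where called, bars for the SE) and with 1 library left out (coloured symbols just below, named for the library left out). Cdh8 stays between −1.55 and −1.25, and Cdh1 runs from −0.038 to 2.64.

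Cdh1 and Cdh3, the type I cadherins of epithelia, differed more between the 2 controls than between the groups. Cdh1 counts were 36 in control replicate 1, 236 in control replicate 2, and 222 and 231 in the cKO libraries. The low library was 1 control, and the other 3 lay between 13.4 and 13.9 CPM. Cdh3 counts were 104 and 339 in controls and 484 and 241 in the cKO, again lowest in control replicate 1, with groups that overlapped. The 6.43-fold gap between the controls of Cdh1 was wider, on the log2 scale with 0.5 CPM added, than that of 99.9% of tested genes, and the 3.20-fold gap of Cdh3 wider than that of 99.5%. The log2 fold changes were 0.75 for Cdh1 (SE 0.61, adjusted p = 0.60) and 0.73 for Cdh3 (SE 0.50, adjusted p = 0.522).

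The result for both genes rested on which control was used. Without control replicate 1 the log2 fold change of Cdh1 was −0.038 (adjusted p = 0.958) and that of Cdh3 was 0.12 (adjusted p = 0.925). Without control replicate 2 they were 2.64 (adjusted p = 0.0005) and 1.8 (adjusted p = 0.031), both called. The first cKO library had a similar weight for Cdh3, which was at 0.12 when that library was left out and at 1.15 when the second was, with no call in either fit. Cdh3 and Cdh1 lie next to each other in the same orientation on chromosome 8 (106510852 to 106556911 and 106603350 to 106670247), with 46438 bases between them. The per-length level of Cdh2 was 129-fold that of Cdh1 in control replicate 1 and 17.3-fold to 18.3-fold in the other 3 libraries.

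Markers of epithelium and surface ectoderm followed the same library. All 15 tested genes of an 18-gene list were lowest in control replicate 1, where 27.2% of all tested genes were. Their levels summed to 15.1 CPM there, to 70.0 CPM in the other control and to 74.2 and 48.2 CPM in the cKO libraries. Trp63, the transcription factor of stratified epithelium, had counts of 0, 101, 79 and 27 in that order, and the epithelial adhesion gene Epcam 109, 190, 342 and 298. In total 4 of the genes were at 0 in control replicate 1 and in no other library, Trp63, the claudin gene Cldn4, the splicing factor gene Esrp2 and the clathrin adaptor gene Ap1m2. None of the 15 genes was called (1 higher and 0 lower at an unadjusted p under 0.05, and 0 called by edgeR). The part of these epithelial markers in the values of Cdh1 and Cdh3 was not tested.

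**Figure D3:**
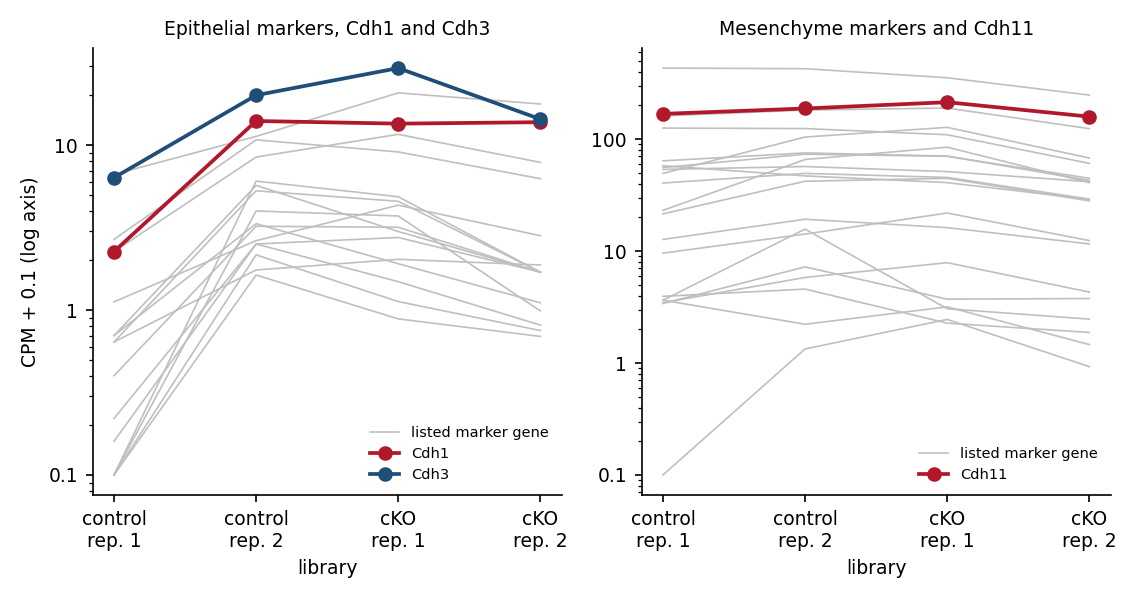
CPM in each library on a log axis, after adding 0.1, for the 15 tested epithelial markers with Cdh1 and Cdh3 (left) and for the 19 tested mesenchyme and neural crest markers with Cdh11 (right). Lines only join the values of 1 gene; on the left every gene is lowest in control replicate 1, with a marker sum of 15.1 CPM.

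Cdh11, a type II cadherin typical of mesenchyme, was the member with the smallest difference between the groups. It measured 168 and 187 CPM in controls and 213 and 159 CPM in cKO libraries, so that the cKO libraries lay on either side of the controls. Its log2 difference of 0.07 (SE 0.13, adjusted p = 0.850) changed sign without control replicate 1 (−0.011) and without cKO replicate 1 (−0.16). Cdh11 was lowest in cKO replicate 2, as were 12 of 19 tested mesenchyme and neural crest markers. In all, 3629 of the 14235 tested genes and 5 of the 10 members were lowest there. Another 7 markers of the mesenchyme and neural crest list were lowest in control replicate 1. That list had sums of 1120 and 1313 CPM in controls and 1245 and 792 CPM in cKO libraries, with 0 genes called by edgeR (6 lower and 0 higher at an unadjusted p under 0.05). The part of mesenchyme in the level of Cdh11 was not tested.

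Cdh13, the GPI-anchored member, was among the lowest, with counts of 30 and 59 in controls and 51 and 46 in cKO libraries. The groups overlapped, since 1 control was the lowest and the other the highest library. Its log2 fold change was 0.13 (SE 0.37, adjusted p = 0.90), with a reversed sign of −0.26 when control replicate 1 was left out.

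The cytoplasmic partners of cadherins were mostly level between the groups, but 2 neural catenins fell. Of 9 tested genes of a 10-gene catenin list, 2 were called lower and 0 higher, with a list median of −0.03 on the log2 scale. Log2 fold changes were below 0 in 6 of the 9 and above 0 in 3. At an unadjusted p under 0.05, 2 were lower and 1 higher. The higher gene was Vcl (log2 difference 0.23), named after its value was seen. Ctnnd2, the neural δ-catenin that binds the part of the cadherin tail next to the membrane, had 727 and 665 counts in controls and 310 and 347 in cKO libraries. Its mean was 41.4 ± 3.2 CPM in controls and 19.6 ± 1.3 CPM in the cKO (log2 difference −1.08, SE 0.10, adjusted p = 0.0032), and it was called in all 4 fits that leave out 1 library. Ctnna2, the neural α-catenin that ties the complex to actin, went from 28.3 ± 4.3 to 15.0 ± 2.9 CPM (−0.91, SE 0.17, adjusted p = 0.033). Ctnna2 missed the threshold in fits without the first control (adjusted p = 0.111), without the first cKO library (0.089) and with the replicate number as a block (0.077). The widely expressed partners differed little: the log2 difference was −0.01 for β-catenin (Ctnnb1, SE 0.04, adjusted p = 0.926), −0.07 for αE-catenin (Ctnna1, SE 0.04, adjusted p = 0.470) and 0.02 for p120-catenin (Ctnnd1, SE 0.05, adjusted p = 0.894). These 3 were named after their values were seen.

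Other cadherins of the family were tested in 4 of 10 cases, since 6 (Cdh9, Cdh12, Cdh15, Cdh18, Cdh19 and Cdh26) had too few counts. None of the 4 was called by edgeR or by DESeq2, and 3 were lower and 0 higher at an unadjusted p under 0.05. The median log2 fold change of the 4 was −0.46. Cdh22, a type II cadherin, had counts of 134 and 126 in controls and 74 and 81 in the cKO (log2 difference −0.74, SE 0.19, adjusted p = 0.096). Cdh5 (VE-cadherin), which defines endothelium, was at 62.8 ± 2.5 and 49.7 ± 3.3 CPM (−0.34, SE 0.08, adjusted p = 0.058). The endothelial list, which includes Cdh5 itself, had 9 of 10 genes below 0 and none called by edgeR. Of all 14235 tested genes, 7123 lay below 0.

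In the list of nectins, afadin and apical polarity genes, 3 of 24 tested genes were lower and 4 higher at an unadjusted p under 0.05. Of the 24, 1 was called lower and 0 higher, with a median of 0.003. That gene was Crb1, a Crumbs protein of the apical membrane, with counts of 38 and 41 in controls and 5 and 1 in the cKO (log2 difference −3.66, SE 0.61, adjusted p = 0.023). It missed the threshold in fits without the first control (adjusted p = 0.061), without the second cKO library (−2.93, adjusted p = 0.110) and with the replicate block (0.053). Among 8 tested transcriptional repressors of Cdh1, the zinc finger gene Zeb2 was called lower and 0 were called higher. Its level was 94.97 ± 0.79 CPM in controls and 72.2 ± 7.4 CPM in the cKO (log2 difference −0.40, SE 0.08, adjusted p = 0.038). Zeb2 missed the threshold in fits without the first control (adjusted p = 0.085), without the first cKO library (0.126) and with the replicate block (0.057). At an unadjusted p under 0.05, 2 repressors were lower and 0 higher. The other was Zeb1, named after its value was seen (log2 difference −0.24, SE 0.05, adjusted p = 0.057). The median of the repressor list was −0.03. Of the 11 enzymes that cut or mature cadherins, 0 were called by edgeR or DESeq2 and 0 passed an unadjusted p under 0.05 (median 0.01). The smallest p-values there were those of Adam15 (log2 fold change −0.23, adjusted p = 0.32) and of Ncstn, a subunit of γ-secretase (0.15, adjusted p = 0.374).

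**Figure D4:**
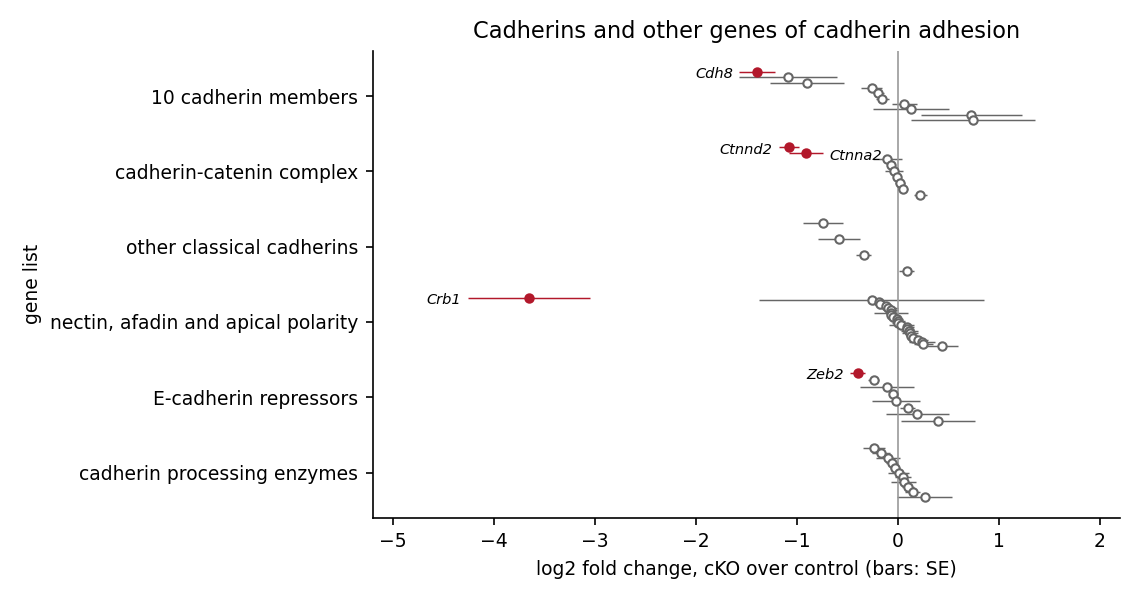
Log2 fold change, cKO over control, of the tested genes of the cadherin family and of 5 lists of genes of cadherin adhesion, with bars for the SE. Filled red circles are genes with an adjusted p under 0.05; these were Cdh8, Ctnnd2, Ctnna2, Crb1 and Zeb2, all below 0. The median of the other classical cadherins was −0.46, and those of the catenin, polarity, repressor and enzyme lists lay between −0.03 and 0.01.

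The labels were checked on the targeted gene and the tissue. Chd7 was at 342 ± 4.1 CPM in the controls and at 134 ± 2.9 CPM in the cKO (log2 difference −1.35, SE 0.05, adjusted p = 8.7e-05), counted over all its exons, deleted or not. Sox1, for which the Cre is named, was at 175 ± 3.4 and 143 ± 5.7 CPM (−0.29, SE 0.05, adjusted p = 0.031). All 12 markers of forebrain neuroepithelium were tested, with sums of 4123 and 3621 CPM in controls and 3174 and 3364 CPM in the cKO. Libraries of a group also differed in ventral midline genes: Nkx2-1 had 57 and 577 counts in controls and 71 and 136 in the cKO, and Shh had 113 and 387 in controls and 41 and 686 in the cKO. Of the 20 compartment genes, 7 were called lower and 4 called higher.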

How the data were processed

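RNA was measured in 4 libraries, 2 control and 2 cKO, grouped by the genotype in the labels. The authors deposited raw read counts per gene, made with featureCounts 2.0.1 on paired-end reads over exons of a RefSeq annotation of mm10 (GRCm38) with no strand option, per the file headers; HISAT2 and DESeq2 are named in the submitters' processing notes. The authors' deposited table gives log2 fold changes, p-values and a normalized signal that equals the count over 1 constant per library (0.990 to 1.013); only its fold changes and adjusted p-values are printed, each named as theirs. There were 0 columns of per-sample values without a sample.

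Counts were filtered with filterByExpr (minimum count 10), scaled by TMM and compared in edgeR 4.0.16 (glmQLFit, glmQLFTest, R 4.3.3), without covariates, and p-values were adjusted over every gene in the fit, with a threshold of 0.05. The SE is the log2 fold change over the root of F. The biological coefficient of variation was 0.0785. The chi-square per degree of freedom between replicates was 4.78 (controls) and 4.07 (cKO), so they are distinct libraries. Gene positions and promoters are from RefSeq for GRCm38.p6, and exon lengths and overlaps from GENCODE M21. Likeness used log2(CPM + 0.5) and left out genes whose mean was under 5 CPM. The members and lists were chosen with earlier results of these data known; named genes are the members, up to 4 called genes a list (or the 2 with the smallest p), and others where said. Alternatives were DESeq2 size factors, no count filter, DESeq2 1.42.0, the replicate number as a block, and each library left out. The fit was tested on simulated data.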

Additional observations from a re-analysis of the deposited data

How the results depend on the processing

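The count of members called lower (1) and higher (0) was the same with DESeq2 size factors, without a count filter, with DESeq2 and with the replicate block. Leaving out 1 library gave 1 to 3 lower and 0 to 2 higher; the 3 and 2 came without control replicate 2. Log2 fold changes that changed sign did so only when a library was left out: Cdh1 ranged from −0.038 to 2.64, Cdh11 from −0.16 to 0.27 and Cdh13 from −0.26 to 0.69, and the values without control replicate 1 were −0.038, −0.011 and −0.26. Over all genes, leaving out a library moved the calls to 131 to 418 lower and 80 to 351 higher. The same fits gave 1 to 2 lower and 0 to 1 higher catenin genes, 0 to 1 lower and 0 to 2 higher polarity genes and 0 to 1 lower repressor genes. Such a fit takes the spread of a group left with 1 library from the other group. The cause of these shifts was not tested.

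Replicate numbers are shared by the groups, but the labels do not say that they mark a shared litter or day, and deviations of same-numbered libraries had a correlation across genes of −0.05. With the replicate block 211 genes were called lower and 137 called higher, and 1 catenin, 0 polarity and 0 repressor genes were called lower. Cdh8 was called with the block (log2 fold change −1.40, adjusted p = 0.019). Cdh7, Cdh10 and Cdh13 had the lowest mean CPM of the members, with counts of 11 to 105 per library. The largest SEs were those of Cdh1 (0.61) and Cdh3 (0.50).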

Other observations

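Across the 4 libraries Cdh3 had the order control replicate 1, cKO replicate 2, control replicate 2, cKO replicate 1, from lowest to highest CPM. This order was seen in 6 of 19 tested mesenchyme and neural crest markers, in 2 of 15 epithelial markers and in 0 of 14 neuronal markers, against 3.72% of all genes tested. The order of Cdh11 (cKO replicate 2, control replicate 1, control replicate 2, cKO replicate 1) was seen in 1 of the 19 mesenchyme markers and 0 of the 15 epithelial markers, against 2.98% of all genes tested. Both comparisons were made after the values had been seen. Cdh19, a type II cadherin of neural crest and glial precursors that was not tested, had counts of 1 and 22 in controls and 1 and 5 in cKO libraries.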
